A study of Rattus norvegicus with 24 samples.

Results

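Messenger RNA of 9 antioxidant and glutathione genes was followed in the liver, brain, thymus and spleen of rats exposed to SAM and of sham-exposed rats. The genes were taken by symbol (Nfe2l2, Keap1, Gclc, Gclm, Gsr, Txnrd1, Srxn1, Slc7a11 and Gpx2), and all 9 were found once each among the 32883 genes of the count table. The animals were Sprague-Dawley rats aged 7 months. The 24 libraries form 8 groups of 3, SAM-exposed and Sham in each tissue, from animals numbered 1, 2, 3 and 5 (SAM) and 13 to 17 (Sham). The series title speaks of PCBs (polychlorinated biphenyls, persistent industrial chlorinated compounds), while the labels call the treatment SAM and give no dose, route or duration. Whether an animal number names 1 rat across tissues is not stated in the labels, and neither are litters or cages, so p-values measure the spread between these samples, which may in part be technical. The Ensembl identifiers are ENSRNOG00000001548 for Nfe2l2, ENSRNOG00000020878 for Keap1, ENSRNOG00000006302 for Gclc, ENSRNOG00000013409 for Gclm, ENSRNOG00000014915 for Gsr, ENSRNOG00000009088 for Txnrd1, ENSRNOG00000031167 for Srxn1, ENSRNOG00000010210 for Slc7a11 and ENSRNOG00000055672 for Gpx2.

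NRF2, the protein of Nfe2l2, is a transcription factor that activates genes for the detoxification of reactive and electrophilic compounds. KEAP1 holds it in the cytoplasm and hands it to a ubiquitin ligase, and oxidants or electrophiles that modify KEAP1 let NRF2 reach the nucleus, where it binds the antioxidant response element (ARE) with a small MAF partner. Its targets make and recycle glutathione and thioredoxin: GCLC and GCLM are the catalytic and modifier subunits of the enzyme that limits glutathione synthesis, the SLC7A11 transporter brings in cystine for it, glutathione reductase (Gsr) and thioredoxin reductase 1 (Txnrd1) regenerate the reduced forms, sulfiredoxin (Srxn1) repairs over-oxidised peroxiredoxins, and GPX2 is an epithelial glutathione peroxidase. Since NRF2 is controlled largely through its protein, its own mRNA is not a measure of its activity.

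The 24 libraries held between 12.9 and 20.1 M counts each (M, mega). Defining markers of each labelled tissue were present: hepatocyte markers summed to 133000 to 168000 CPM (counts per M counts of the library) in liver, neuronal markers to 6450 to 10000 in brain, thymocyte markers to 9680 to 11600 in thymus and B cell markers to 3100 to 4110 in spleen. The mitochondrial genome supplied 17.8% of the counts of liver SAM 1, compared with 5.71 to 8.07% for the remaining 5 livers. Brain SAM 1 and SAM 2 held 979 and 929 CPM of olfactory bulb and forebrain inhibitory precursor markers, against 45.1 to 59.3 in the other 4 brain libraries, and 6450 and 6750 CPM of neuronal markers against 9320 to 10000. For many results in these tissues, values without those libraries are also given below.

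Proximal promoters (RefSeq, build GRCr8, 250 bases before to 50 after the annotated start) were at hand for 8 of the 9 genes. They are shown because the ARE is the sequence through which these genes are tied to NRF2. The ARE core was searched as TGACNNNGC on both strands. It was found in 4 of the 9 windows of these genes (Txnrd1 has 2), and in 12.1% of all 33469 promoter windows of that length. In 3 of the windows the match lay upstream of the start and read on the reverse strand, so that it appears below as its reverse complement, in capitals, with neighbouring bases in lower case, each 5′ to 3′ along the gene's own strand and ending at the start site at the latest. That of Gclm lies 172 to 164 bases before its start (chr2:213031948-213031986, plus strand), that of Txnrd1 78 to 70 bases before the second of its 2 starts (chr7:22755959-22755997, minus strand), and that of Gpx2 13 to 5 bases before its start (chr6:101230034-101230061, minus strand).
Gclm: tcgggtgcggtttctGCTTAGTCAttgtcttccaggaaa
Txnrd1: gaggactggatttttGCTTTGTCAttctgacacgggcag
Gpx2: tgggtacctggtttcGCTAAGTCAttct
A match in Nfe2l2 lay after its start, and the windows of Keap1, Gclc, Srxn1 and Slc7a11 held none. A match is a run of letters in a short window and not a measured binding site, and the lack of one says only that these letters are not in the window.

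The level of the genes in unexposed tissue was compared over the 12 Sham libraries. Slc7a11 had the widest range of the 9. In CPM of the library total it averaged 493 ± 37.4 in Sham thymus, 80.1 ± 24.1 in brain, 35.2 ± 6.28 in spleen and 0.0814 ± 0.0977 in liver (SD, n = 3). The 3 Sham livers held 0, 1 and 3 counts, and all 6 liver libraries together 10 counts, or 0.104 CPM (exact Poisson 95% interval 0.0498 to 0.191, counting error only). Thymus stood above brain by 2.33 ± 0.19 (SE) and above spleen by 3.64 ± 0.20 on the log2 scale, and all 6 pairs of tissues differed for Slc7a11 (edgeR adjusted p at most 2.78e-05). No scaling, block or left-out library ended those 6 calls. Slc7a11 passed the filter on low counts only through tissues where it is higher, so the 3 pairs with liver could hardly have failed. No support is drawn from those 3. The SAM libraries had the same order of levels for this cystine transporter (511 ± 15.6, 113 ± 2.51, 26.9 ± 4.09 and 0.120 ± 0.0884 CPM in thymus, brain, spleen and liver).

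Gpx2, the epithelial peroxidase, was present in thymus, mixed in liver and near 0 in brain and spleen. Liver SAM 2, SAM 3 and Sham 15 held only 4, 1 and 4 counts of it. Sham thymus averaged 5.81 ± 1.08 CPM and Sham liver 3.53 ± 3.02, the latter spread from 0.253 to 6.20. The 6 brain libraries held 18 counts of Gpx2 in all (0.178 CPM, exact Poisson 95% interval 0.105 to 0.281) and the 6 spleen libraries 8 counts (0.0778 CPM, 0.0336 to 0.153), with 3 spleen libraries at 0, which allows up to 0.225 CPM in the shallowest. Liver and thymus did not differ beyond the spread (log2 difference 1.0 with trimmed-mean scaling, 95% interval -0.30 to 2.29, adjusted p = 0.144), and the direction turned with library totals alone (-0.72). With trimmed-mean scaling that comparison passed without Sham liver 15 (1.54, adjusted p = 0.000848), the liver library with 0.253 CPM.

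Nfe2l2, Gclc, Gclm, Gsr and Txnrd1 were highest in liver. Over Sham brain, liver stood higher by 3.56 ± 0.11 for Nfe2l2, 3.24 ± 0.15 for Gclm, 2.67 ± 0.11 for Gsr, 2.23 ± 0.13 for Txnrd1 and 2.2 ± 0.10 for Gclc on the log2 scale (edgeR adjusted p at most 2.74e-09). The size of these differences depends on how libraries of such unlike tissues are scaled. A few very abundant transcripts take much of a liver library, and the trimmed-mean factors (TMM) that offset this were 0.340 to 0.459 in liver against 1.19 to 1.49 in the other tissues. With library totals alone, the median gene was 1.37 lower in liver than in brain on the log2 scale, against 0.01 higher with TMM. The 5 genes were still higher in liver than in each other tissue by 0.27 to 2.12 with library totals alone, and every one of these 15 comparisons passed under both scalings.

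The order of the lower tissues was less clear. Nfe2l2 was lowest in brain (26.1 ± 0.867 CPM of the library total, against 83.3 ± 4.22 in thymus and 94.1 ± 2.87 in spleen), with brain 1.38 ± 0.11 below thymus on the log2 scale. Thymus and spleen differed by -0.35 ± 0.10 for it with TMM (adjusted p = 0.00957), a call lost with library totals alone (-0.18, adjusted p = 0.103). Gclc was 0.60 ± 0.10 higher in brain than in thymus (0.31 with library totals alone, also past the threshold), and thymus and spleen did not differ beyond their spread (-0.14, 95% interval -0.36 to 0.07). For Gclm, brain against thymus (0.12, -0.19 to 0.43) and brain against spleen (-0.26, -0.57 to 0.05) did not pass, while thymus against spleen did (-0.38, adjusted p = 0.0338). The latter call was lost when thymus Sham 14 or 17 or spleen Sham 14 or 17 was left out (-0.40 to -0.20, adjusted p = 0.0539 to 0.227), and brain against spleen passed without spleen Sham 15 (-0.38, adjusted p = 0.0299). With library totals alone thymus against spleen was lost (-0.20, adjusted p = 0.245) and brain against spleen passed (-0.37, adjusted p = 0.0304). Thymus against spleen was also lost with relative log expression scaling (-0.34, adjusted p = 0.054) and with the animal number as a block (-0.37, adjusted p = 0.068). The neighbours of Txnrd1, brain, thymus and spleen, were within 0.23 of each other on the log2 scale and none of the 3 pairs passed with TMM. With library totals alone thymus stood 0.36 above spleen (adjusted p = 0.0267), and without spleen Sham 14 both brain (0.36, adjusted p = 0.0224) and thymus (0.34, adjusted p = 0.0421) stood above it. Gsr was lowest in brain (34.5 ± 1.67 CPM of the library total), and thymus and spleen did not differ beyond the spread (-0.19, -0.41 to 0.02).

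Keap1 and Srxn1 had no order that held under both scalings. Sham Keap1 averaged 67.7 ± 7.09 CPM of the library total in spleen, 66.5 ± 3.19 in brain, 48.7 ± 1.10 in liver and 47.7 ± 3.28 in thymus. With TMM, liver was 0.99 ± 0.08 above brain and 1.09 ± 0.08 above spleen on the log2 scale, and with library totals alone 0.45 and 0.48 below them, all 4 past the threshold (adjusted p at most 0.00034). Brain stood above thymus under both (0.77 ± 0.08 and 0.48). Srxn1, the sulfiredoxin, was scarce, at 5.15 ± 0.458 CPM of the library total in Sham brain, 3.35 ± 0.400 in thymus, 2.47 ± 1.19 in liver and 0.742 ± 0.215 in spleen. Spleen was below brain by 2.89 ± 0.32 and below thymus by 1.97 ± 0.32 on the log2 scale under TMM, both past the threshold under each scaling, while liver against brain turned from 0.36 with TMM to -1.07 with library totals.

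In all, with TMM the members called were 8 of 9 for Sham liver against brain (81.4% of the 17204 genes tested), 8 of 9 for liver against thymus (77.3%), 9 of 9 for liver against spleen (76.1%), 7 of 9 for brain against thymus (82.5%), 5 of 9 for brain against spleen (82.4%) and 6 of 9 for thymus against spleen (62.3%), the last including the Gclm call that single libraries ended. Most genes differ between such tissues, so these shares are no property of the set. Slc7a11 in liver and Gpx2 in brain and spleen were near 0 and passed the low-count filter through tissues where they are higher. The animal number as a block ended the calls of Srxn1 (brain against thymus), Gclc (brain against spleen) and Gclm (thymus against spleen). Keap1 and Txnrd1 passed for brain against spleen with relative log expression scaling (0.27 and 0.4, edgeR adjusted p = 0.00773 and 0.012).

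**Figure D1:**
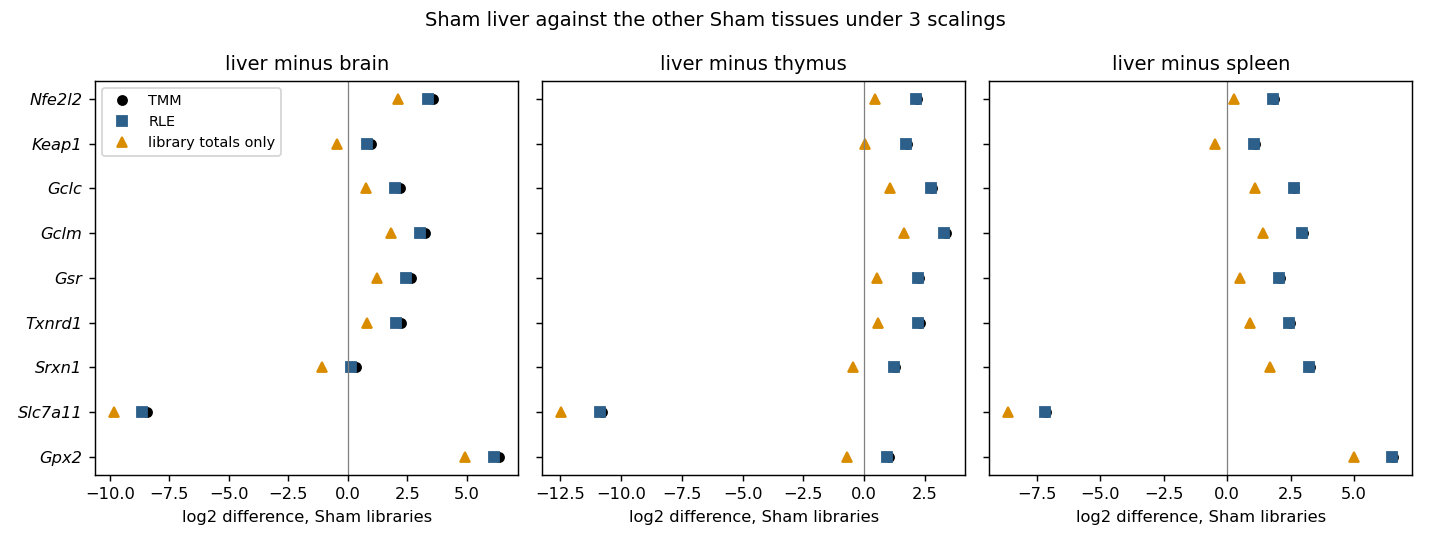
Log2 difference between Sham liver and Sham brain, thymus or spleen for each of the 9 genes (3 libraries per tissue), with trimmed-mean scaling, relative log expression scaling (RLE) or library totals alone; values right of the line are higher in liver. Slc7a11 lies far to the left in every panel, and Keap1 crosses the line against brain and spleen when library totals are used.

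Ratios between 2 genes counted in the same library do not depend on scaling. The counts of Gclc over those of Gclm were 1.81, 1.85 and 1.88 in the Sham livers, 1.99, 2.93 and 2.17 in the spleens, 3.09, 2.55 and 2.59 in the thymuses and 3.79, 3.71 and 3.88 in the brains. Brain thus held more catalytic per modifier subunit mRNA than any other Sham library, and liver less. Nfe2l2 over Keap1 was 2.01, 2.46 and 2.51 in Sham liver, 1.75 ± 0.134 in thymus, 1.40 ± 0.192 in spleen and 0.394 ± 0.0303 in brain, where all 3 libraries lay far below those of the other tissues. The ratios hold gene length, which is the same in each tissue if the transcripts are, so they compare tissues and not the 2 genes. With 3 libraries against 3, an exact permutation test cannot go below 0.10.

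**Figure D2:**
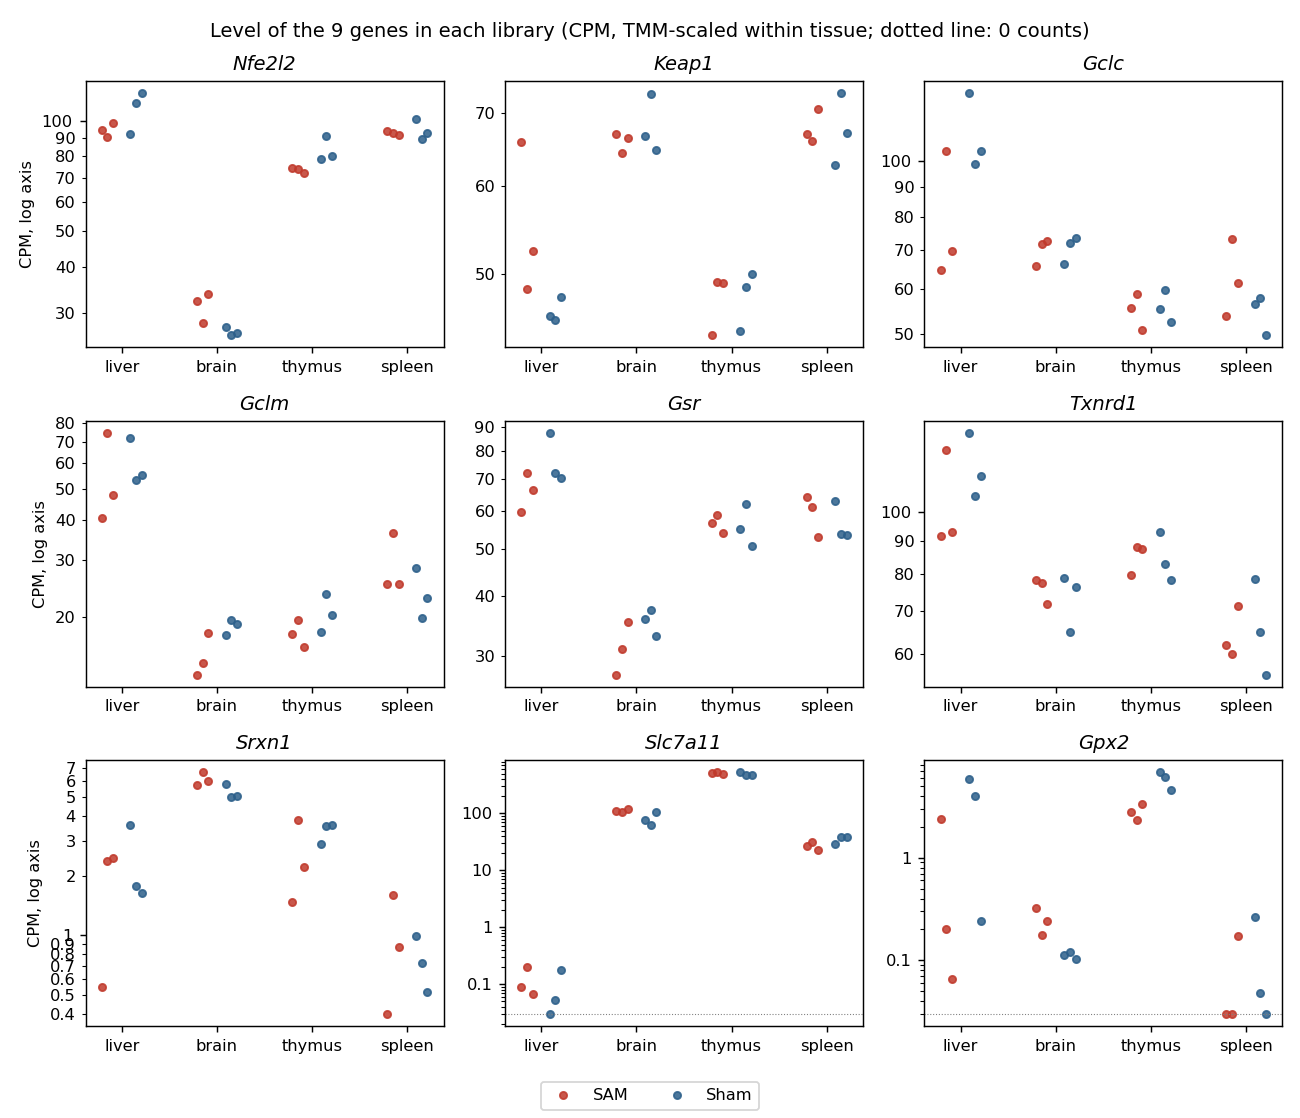
CPM of each gene in each of the 24 libraries on a log axis, scaled by TMM within the tissue, red for SAM and blue for Sham; points on the dotted line are libraries with 0 counts. Slc7a11 is at 471 to 529 CPM in thymus and near 0 in liver, and SAM and Sham points of most genes overlap within each tissue.

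Genes with the most similar profile were taken over the 24 libraries, as the 3 with the highest Pearson correlation of log2 CPM among 15243 genes averaging at least 1 CPM. They were Slc28a2, Nadk and Tmem14c for Nfe2l2 (0.991 to 0.992), Cndp2, Gsto1 and Egln2 for Keap1 (0.985 to 0.990), Canx, Cyb5b and Nadk2 for Gclc (0.984 to 0.988), and C2cd2, Stbd1 and Selenop for Gclm (0.984 to 0.986). For Gsr they were Tmco1, Tor1aip2 and F11r (0.990 to 0.992), for Txnrd1 Errfi1 and Bdh1 (0.989 to 0.990), and for Slc7a11 Cd200, Mef2d and Sipa1l3 (0.988 to 0.991). Srxn1 (Epha3 and Zfp879, 0.910 to 0.948) and Gpx2 (Ift27, Ttc24 and Aacs, 0.862 to 0.864) had no such close match. Among the members themselves, Gclc, Gclm, Gsr and Txnrd1 correlated at 0.89 to 0.97 and each of them with Slc7a11 at -0.95 to -0.89. Keap1 correlated with these 4 at 0.81 to 0.91 and with Slc7a11 at -0.96, and Nfe2l2 at 0.76 to 0.96 and -0.83. The 24 libraries are 4 tissues of 6 libraries each, scaled together, so the points are not independent and the values are a description.

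The exposure was then compared with sham in each tissue. In edgeR no member passed in any tissue after adjustment over all genes: 0 of 8 tested in liver, 0 of 8 in brain, 0 of 9 in thymus and 0 of 8 in spleen. Over all genes 0% were called in each tissue too. At an unadjusted p under 0.05 there were 0 members in liver, 1 in brain (Nfe2l2), 2 in thymus (Gpx2 and Nfe2l2) and 1 in spleen (Slc7a11). Of all genes tested, 20.5% of those in brain passed that threshold, against 6.13% for thymus, 4.11% for spleen and 2.70% for liver. DESeq2 called 1 member, Gpx2 in thymus, among 102 genes there, and 0 members among 2 genes in liver, 513 in brain and 7 in spleen. For scale, edgeR tested 15036 genes in thymus, 12130 in liver, 15126 in brain and 14530 in spleen. The members left out by the filter on low counts were Slc7a11 in liver and Gpx2 in brain and spleen.

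**Figure D3:**
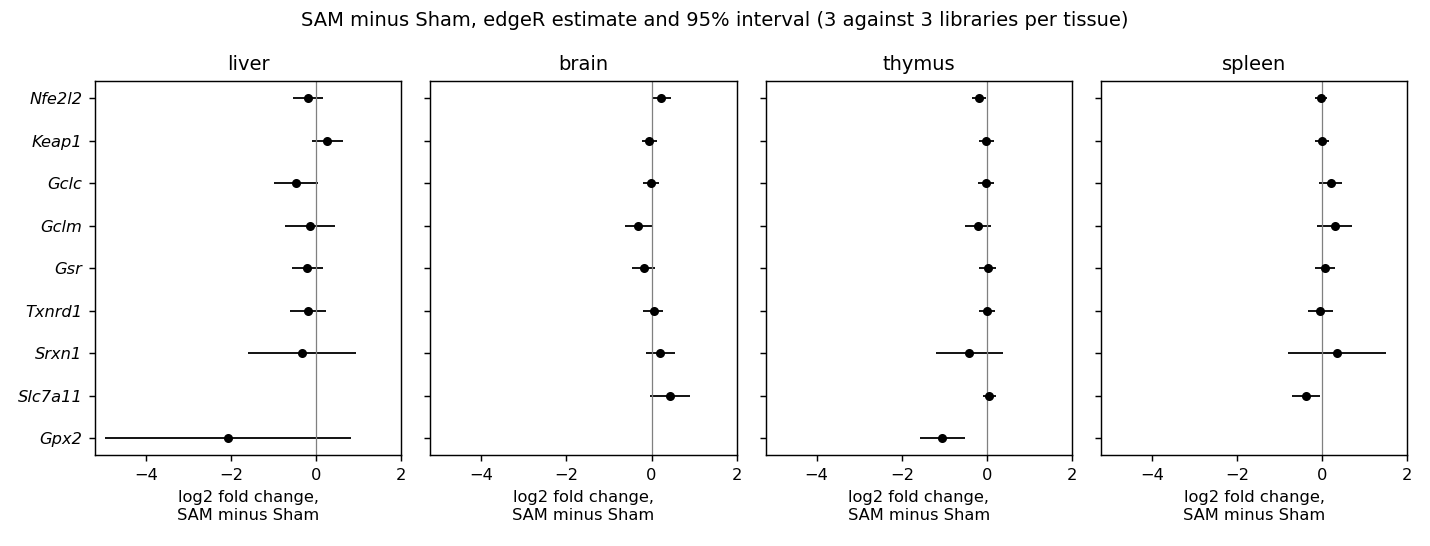
EdgeR log2 fold change (SAM minus Sham) of each tested member in each tissue, with its 95% interval as bars. Gpx2 in thymus lies lowest relative to its interval, at -1.05, while the intervals of Keap1, Gclc, Gsr and Txnrd1 in thymus reach no further than 0.21 either way.

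The largest difference relative to its error was that of Gpx2 in thymus. It was at 2.77, 2.30 and 3.35 CPM in the SAM thymuses of animals 1, 3 and 5 and at 6.78, 6.08 and 4.57 CPM in the Sham thymuses of animals 14, 15 and 17. Every SAM library was below every Sham library, as for 6.96% of the 15036 thymus genes tested. SAM thymus averaged 2.81 ± 0.527 CPM and Sham thymus 5.81 ± 1.13 (SD, n = 3). On the log2 scale the difference was -1.05 ± 0.23 (SE, 95% interval -1.58 to -0.52). It did not pass in edgeR (adjusted p = 0.409) and passed in DESeq2 (adjusted p = 0.0426). Leaving out each library in turn gave -1.20 to -0.92.

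The 12 thymic epithelium markers, among them Krt5, Krt14 and Epcam, summed to 951, 1300 and 1220 CPM in the same SAM libraries and to 1720, 1820 and 1710 in the Sham ones. All 12 averaged lower in SAM and none was at 0. Gpx2 per 1000 counts of these markers was 2.92, 1.76 and 2.74 in SAM and 3.94, 3.34 and 2.68 in Sham, and the groups overlapped (exact permutation p = 0.3, two-sided). In bulk tissue, fewer cells of a type and less RNA per cell cannot be told apart. Thymocyte markers summed to 10400 to 11600 CPM in SAM and 9680 to 10900 in Sham, and adipocyte markers to 118 to 664 and 45.4 to 1010.

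**Figure D4:**
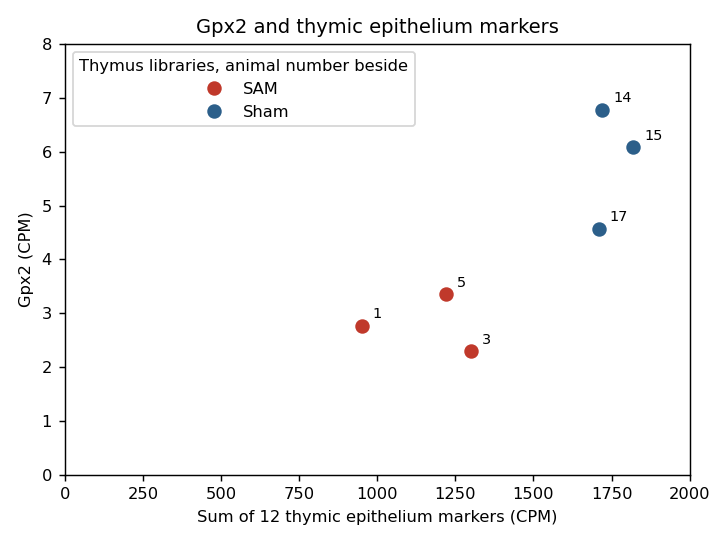
Gpx2 in CPM against the summed CPM of 12 thymic epithelium markers in the 6 thymus libraries, with the animal number beside each point. The 3 SAM libraries lie at 951 to 1300 CPM of markers and 2.30 to 3.35 CPM of Gpx2, and the 3 Sham libraries at 1710 to 1820 and 4.57 to 6.78.

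Gpx2 in liver varied more within the groups than between them. SAM livers 1, 2 and 3 had 2.38, 0.202 and 0.0666 CPM, and Sham livers 13, 14 and 15 had 5.82, 3.95 and 0.242. High and low libraries occurred in both groups. The log2 fold change was -2.08 with a 95% interval of -4.97 to 0.81, and it ranged from -4.48 without SAM 1 to -1.40 without Sham 13. In brain all 3 SAM libraries (6, 3 and 3 counts) lay above the Sham libraries (2 counts each), all too close to 0 to be tested.

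Nfe2l2, which encodes NRF2, was slightly higher in SAM brain and slightly lower in SAM thymus. SAM brains 1, 2 and 3 were at 32.4, 28.1 and 33.8 CPM and Sham brains 13, 15 and 16 at 27.5, 26.1 and 26.5. Every SAM brain was above every Sham brain, as for 11.6% of the 15126 brain genes tested, and the log2 fold change was 0.23 ± 0.10 (adjusted p = 0.240). SAM 3, which lacks the olfactory bulb markers of SAM 1 and SAM 2, had the highest value, and alone against Sham it gave 0.34. Other markers differed too. Oligodendrocyte markers summed to 5880, 5170 and 4360 CPM in SAM 1, 2 and 3 (5850 to 6990 in Sham), and all 8 averaged lower over the SAM brains. Astrocyte markers summed to 4000, 4630 and 5730 (4690 to 4790), with 4 of 9 averaging lower. Endothelial and meningeal markers were at 394, 404 and 605 (411 to 454) and blood markers at 172, 185 and 463 (137 to 202). Choroid plexus markers were at 18.6, 20.2 and 12.2 (3.91 to 9.22). Their part in the result was not tested. In thymus the SAM libraries were at 74.5, 73.9 and 72.1 CPM and the Sham libraries at 78.8, 91.0 and 80.3, a log2 fold change of -0.18 ± 0.07 (adjusted p = 0.775). Gpx2 and Nfe2l2 were the 2 of 9 members below every Sham thymus, against 6.96% of genes, in the SAM libraries in which all 12 thymic epithelium markers averaged lower. In liver (-0.19, 95% interval -0.54 to 0.17) and spleen (-0.02, -0.17 to 0.12) the groups overlapped.

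Keap1, the NRF2 inhibitor, stood higher in SAM liver at 65.8, 48.4 and 52.4 CPM against 45.8, 45.4 and 47.6. The groups did not overlap, as for 5.19% of the 12130 liver genes tested in that direction. The log2 fold change of 0.26 ± 0.16 did not pass (adjusted p = 0.802), and it was 0.12 without SAM 1, the highest library and the one with 17.8% mitochondrial counts. In CPM of the library total Keap1 was at 51.5 to 53.2 in the SAM livers and 47.6 to 49.8 in the Sham livers, so SAM 1 stood out only with TMM. No member lay below every Sham liver, against 5.63% of genes. Keap1 in brain (-0.05, 95% interval -0.23 to 0.13), thymus (-0.01, -0.19 to 0.17) and spleen (0.00, -0.16 to 0.17) overlapped between the groups, with intervals that reach no further than 0.23 on the log2 scale.

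Of the subunits of glutamate-cysteine ligase, Gclc was lower in SAM liver at 64.6, 104 and 69.7 CPM, against 131, 98.7 and 104 in Sham. SAM 1 and 3 were low and SAM 2 was at the level of Sham 14 and 15. The log2 fold change was -0.48 ± 0.22 (95% interval -1.0 to 0.04, adjusted p = 0.802). Gclm, at 40.6, 74.8 and 47.9 against 72.0, 53.4 and 55.1, overlapped between the groups (-0.14 ± 0.25), and it was 0.03 without SAM 1. In that tissue SAM 1 was the lowest of the 6 libraries for Gclc, Gclm, Gsr, Txnrd1 and Srxn1, and Sham 13 the highest for 4 of these 5. The other tested members differed: Keap1 was highest in SAM 1 (65.8 CPM), Nfe2l2 lowest in SAM 2 (90.6) and Gpx2 lowest in SAM 3 (0.0666). How many of all liver genes were lowest in SAM 1 was not counted. Whether the mitochondrial share of SAM 1 bears on its low values was not tested. Blood markers summed to 1130, 484 and 778 CPM in SAM livers 1, 2 and 3 (345 to 441 in Sham), with 1 of 6 averaging lower. Macrophage markers summed to 162, 683 and 330 (181 to 490), with 4 of 8 averaging lower. The part of these markers in the liver results was not tested. Without SAM 1, 5 of the 8 tested members were negative in liver (median -0.13), against 7 of 8 with it (median -0.20), where 52.2% of all genes were positive.

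In brain Gclm was at 13.2, 14.3 and 17.8 CPM in SAM and 17.5, 19.5 and 19.0 in Sham (-0.31 ± 0.14, adjusted p = 0.260). Gsr was at 27.4, 30.9 and 35.3 against 35.8, 37.3 and 33.0 (-0.18 ± 0.11, adjusted p = 0.366). Both were lowest in SAM 1 and SAM 2, the libraries with the olfactory bulb markers, and SAM 3 lay within the Sham range for both. Without SAM 3 both passed (Gclm -0.44, edgeR adjusted p = 0.0128, Gsr -0.28, 0.0465). That fit called 5896 genes, where 15126 were tested with all brain libraries, so such calls were common in it. With SAM 3 as the only SAM library Gclm and Gsr were at -0.06 and 0.00. No member lay below every Sham brain, against 12.2% of genes. Gclc was level in brain (-0.01, 95% interval -0.21 to 0.18).

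The ratio of Gclc to Gclm counts was 1.59, 1.39 and 1.45 in SAM liver, below all 3 Sham livers (1.85 ± 0.0329), and 4.99, 5 and 4.07 in SAM brain, above all 3 Sham brains (3.79 ± 0.0839). In liver 1.30% of all tested genes had a ratio to Gclm that lay below Sham in every SAM library, and in brain 25.7% had one above it. Nfe2l2 over Keap1 was 1.44, 1.87 and 1.88 in SAM liver, below Sham (as for the ratio of 17% of genes to Keap1), and 0.484, 0.438 and 0.509 in SAM brain, above Sham (13.2% of genes). In the spleen Slc7a11 over Gclc was 0.503, 0.423 and 0.373 in SAM and 0.514, 0.655 and 0.769 in Sham (12.6% of genes). Of these 5 ratios, which are those of the 17 made that kept the groups apart, the liver ratio of Gclc to Gclm had the lowest share. That share depends on the level of Gclm in each library as well as on Gclc. Over the 17 ratio comparisons made, chosen after the counts were seen, the smallest exact permutation p was 0.1, the least that 3 against 3 allow, and the smallest Benjamini-Hochberg value was 0.34.

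**Figure D5:**
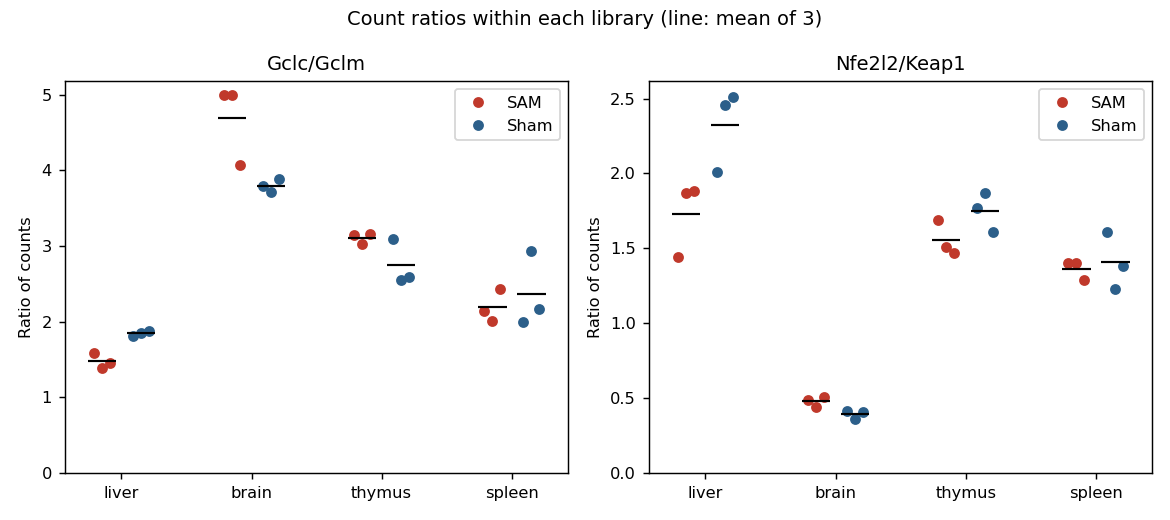
Ratio of the counts of Gclc to Gclm and of Nfe2l2 to Keap1 in each library, by tissue, red for SAM and blue for Sham, with the mean of 3 as a line and both axes from 0. The SAM points of liver lie below the Sham points in both panels, those of brain above, and those of thymus and spleen overlap.

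Slc7a11 was at 109, 104 and 118 CPM in SAM brain and 75.4, 62.2 and 108 in Sham brain. Sham 16 was as high as the SAM libraries, so the groups overlapped (0.43 ± 0.20, 95% interval -0.04 to 0.90, adjusted p = 0.263). Leaving out Sham 16 gave 0.68 and Sham 15 gave 0.27. In the spleen it was at 27.1, 31.0 and 22.9 CPM in SAM and 29.0, 37.9 and 38.4 in Sham (-0.38 ± 0.15, adjusted p = 0.967). Plasma cell markers summed to 770 to 1380 CPM in the SAM spleens and 1260 to 2120 in the Sham ones, and T cell markers to 893 to 1040 and 760 to 889, with none of the 7 averaging lower in SAM. Their part in the result was not tested. In the thymus, where the gene is most abundant, it differed little, at 523, 524 and 488 CPM against 529, 477 and 471 (0.06, 95% interval -0.10 to 0.21).

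Of the recycling enzymes, Gsr and Txnrd1 overlapped between the groups in all 4 tissues. Txnrd1 had log2 fold changes of -0.19 in liver (95% interval -0.61 to 0.24), 0.05 in brain (-0.19 to 0.28), 0.01 in thymus (-0.18 to 0.19) and -0.04 in spleen (-0.34 to 0.25). Gsr was at -0.21 in liver (-0.58 to 0.15), 0.02 in thymus (-0.18 to 0.21) and 0.07 in spleen (-0.16 to 0.30). In liver, where both are most abundant, Gsr was at 59.9, 72.1 and 66.3 CPM in SAM and 87.5, 72.2 and 70.3 in Sham, and Txnrd1 at 91.6, 125 and 93.0 against 133, 106 and 114. SAM 2 lay within or near the Sham range for both. The intervals in thymus leave room for changes of up to about 0.2 on the log2 scale. In brain, its most abundant site by library totals, Srxn1 was at 5.71, 6.66 and 6 CPM in SAM and 5.81, 4.97 and 5.05 in Sham, with 1 Sham library inside the SAM range. Srxn1 rested on 6 to 112 counts per library and had intervals of -1.61 to 0.94 in liver, -0.13 to 0.56 in brain, -1.20 to 0.37 in thymus and -0.80 to 1.51 in spleen. In spleen no member kept the groups apart, against 4.47% of genes with every SAM library above and 4.74% below, and none was above every Sham library in thymus (4.97%). Spleen values of Gclc (0.20 ± 0.12) and Gclm (0.29 ± 0.18) were highest in SAM 3, at 73.2 and 36.4 CPM, and the differences were 0.07 and 0.09 without it.

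A joint fit of all 24 libraries tested, through 3 interaction terms, for a SAM effect that depends on the tissue. No member passed (0 of 9, adjusted p from 0.480 for Gclc to 0.925 for Txnrd1), with 3 at an unadjusted p under 0.05 (Nfe2l2, Gclc and Slc7a11), as had 9.20% of all genes. Over all 17623 genes, 2 passed, or 0.0113%. The fit with the animal number as a block also called 0 members.

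Other genes of the pathway were read from 5 lists, none of whose members passed in any tissue (edgeR, 0 up and 0 down in each list and tissue). The list of NRF2 regulators and partners had medians of -0.06 in liver (18 tested), -0.11 in brain (19), 0.01 in thymus (20) and 0.05 in spleen (20). The liver median was -0.09 without SAM 1, and the brain median -0.01 without SAM 1 and SAM 2. Nfe2l1, which encodes the NRF2 relative NRF1, averaged 103 ± 8.10 CPM in SAM thymus against 137 ± 7.15 in Sham thymus with no overlap (-0.41 ± 0.07, adjusted p = 0.306). In thymus 3 of the 20 regulators tested lay below every Sham library, against 6.96% of all genes. In SAM brain, the kinase Gsk3b (-0.29) and the ubiquitin ligase subunit Btrc (-0.29), which together mark NRF2 for degradation, were below every Sham library (adjusted p = 0.221 and 0.222). In brain that held for 3 of the 19 regulators tested and for 12.2% of all genes. Gsk3b and Btrc stood at -0.25 and -0.11 with SAM 1 and SAM 2 left out. The others with the lowest p were Palb2 (-0.52) and Nfe2l1 (-0.51) in liver (-0.49 and -0.18 without SAM 1), Mafk (0.16) in thymus, and Nfe2 (0.65) and the ARE repressor Bach1 (0.26) in spleen.

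Other textbook NRF2 targets had medians of 0.26 in liver (19 positive and 7 negative), 0.06 in brain (-0.01 without SAM 1 and SAM 2), -0.02 in thymus and -0.02 in spleen, against medians of all genes of -0.001 to 0.018. In liver the glutathione transferase Gstm1 was at 0.68 ± 0.29 (adjusted p = 0.802), above every Sham library, and at 0.45 without SAM 1. It was the 1 of 26 targets tested in liver to lie above every Sham library, against 5.19% of all genes. Without SAM 1 the liver median was 0.06, with 17 positive and 9 negative. In brain the glutathione transferases Gsta4 (0.61) and Gstm1 (0.26) were above every Sham library (adjusted p = 0.221 and 0.222), and were at 0.23 and 0.16 without SAM 1 and SAM 2. Of the 25 targets tested in brain, 3 lay above every Sham library, against 11.6% of all genes. In thymus Nqo1, the classic NRF2 target, was at 5.28 ± 0.692 against 6.76 ± 0.278 CPM (-0.36, adjusted p = 0.820), and Hmox1 at 0.24. Gsta1 (-0.28) and Ephx1 (-0.30) led in spleen.

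Of the other glutathione genes, 26 of 30 tested were positive in liver (median 0.22), led by the microsomal transferases Mgst3 (0.71, or 0.24 without SAM 1) and Mgst2 (0.53, or 0.26). Without SAM 1 the median was 0.03, with 18 positive and 12 negative. In brain (median 0.07, or 0.05 without SAM 1 and SAM 2) glutaredoxin Glrx was at 40.4 ± 2.61 against 51.9 ± 1.61 CPM (-0.36 ± 0.08, adjusted p = 0.221), and Chac1, which breaks down glutathione, at -0.53. They were at -0.28 and -0.48 with SAM 1 and SAM 2 left out. In thymus (median -0.06) Gpx3, the secreted peroxidase, was at 168 ± 24.9 against 251 ± 22.0 CPM (-0.58 ± 0.12, adjusted p = 0.406) and Cbs at -0.60, both below every Sham library. That held for 4 of the 34 glutathione genes tested there, against 6.96% of all genes. Spleen (median -0.05) was led by Chac2 (0.54) and Glo1 (-0.12).

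The thioredoxin, peroxiredoxin and superoxide genes had medians of 0.11 in liver (-0.02 without SAM 1), 0.01 in brain (0.08 without SAM 1 and SAM 2), -0.05 in thymus and -0.02 in spleen. The lowest p were those of Msrb2 (0.41) and Msrb3 (-0.30) in liver (0.17 and -0.15 without SAM 1), Sod2 and Prdx5 (-0.33 each) in brain, Prdx4 (0.20) and Sesn3 (-0.17) in thymus, and catalase Cat (0.30 ± 0.08, adjusted p = 0.967) and Msrb1 (-0.21) in spleen. Sod2 and Prdx5 were at -0.10 and -0.09 without brain SAM 1 and SAM 2. Genes of the amino acid response, another known input to Slc7a11, had medians of 0.26 in liver (0.04 without SAM 1), -0.02 in brain (0.1 without SAM 1 and SAM 2), -0.04 in thymus and -0.03 in spleen. Atf4 (0.58) and Ddit3 (0.86) in liver were at 0.06 and 0.22 without SAM 1. Ddit4 was at -0.57 in spleen and -0.42 in thymus, and Vldlr at -0.29 and -0.48 (adjusted p = 0.967 in spleen, and 0.746 and 0.830 in thymus). Phgdh of serine synthesis was at 0.41 in brain and 0.11 without SAM 1 and SAM 2.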

How the data were processed

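Poly(A) RNA libraries of 24 tissue samples were made with a stranded kit after column purification, per the labels' protocols. STAR 2.2.1 and rat build rn6 are named in the submitters' processing notes without a role; which program counted the reads, with which annotation and strand setting, is not stated in them, so genes that overlap or resemble each other may share reads. The authors deposited whole-number counts per gene, not normalized. Tissue and animal number in each column name gave its sample (0 columns unused).

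Each tissue was fitted alone with edgeR 4.0.16 (R 4.3.3): filterByExpr, TMM scaling and the quasi-likelihood test, SAM minus Sham, with Benjamini-Hochberg adjustment over all genes tested and a threshold of 0.05. SEs are the log2 fold change over the root of F, and intervals use the test's degrees of freedom. Sham tissues were compared in 1 edgeR fit of 12 libraries. DESeq2 1.42.0, RLE, no filter, mitochondrial genes left out, a joint fit, an animal block and leaving out libraries were the alternatives; library totals alone, the list counts without liver SAM 1 or brain SAM 1 and 2, the count ratios, and the fit of brain and thymus alone were added after seeing the data. The within-tissue edgeR fit was also run on simulated counts, in which no library was made unlike the others of its group. That run is not used as support. CPM within a tissue is TMM-scaled; CPM of the library total is named so. Counts per library were 12.9 to 20.1 M, so 3 counts equal 0.149 to 0.233 CPM. No replicate pair was taken for a copy, since chi-square per degree of freedom between replicates was 5.95 to 193.

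The members, lists and tests were chosen with earlier results of these data known. Named are all members and, per list and tissue, the 2 genes of at least 1 CPM with the lowest p; a few genes these rules select are not reported here. Of the 5 lists of other pathway genes, the table held 20 of 21 regulators, 29 of 33 NRF2 targets, 37 of 38 glutathione genes, 24 of 26 thioredoxin genes and 15 of 15 amino acid response genes, some of them in 2 lists. With brain SAM 3 alone, it is assumed to vary like the Sham libraries. Promoters come from RefSeq (GRCr8) by symbol, with 8 of 9 members matched; rn6 coordinates are not used.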

Additional observations from a re-analysis of the deposited data

Results flagged for a closer look

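Nfe2l2 was higher than every Sham library in all 3 SAM brains and lower in all 3 SAM thymuses, a gap of 0.41 between the 2 log2 fold changes. In a fit of brain and thymus alone, chosen after this was seen, the difference was -0.41 ± 0.11 (thymus minus brain, edgeR adjusted p = 0.190), and with the animal number as a block -0.59 (adjusted p = 1), so it did not pass.

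The ratio of Gclc to Gclm counts lay below Sham in every SAM liver and above it in every SAM brain, with the log2 ratios of the means 0.63 apart. The ratio of Nfe2l2 to Keap1 counts did the same, 0.71 apart. Neither difference was tested between the tissues. Brain SAM 1 and SAM 2, which hold 979 and 929 CPM of olfactory bulb markers, gave the 2 highest brain ratios of Gclc to Gclm (4.99 and 5, against 4.07 in SAM 3), whereas SAM 3 had the highest ratio of Nfe2l2 to Keap1 (0.509).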

How the results depend on the processing

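The count of members called was 0 in every tissue under each alternative run, except 1 in thymus with DESeq2 (Gpx2) and, with single libraries left out, 0 to 2 in brain, where both calls (Gclm and Gsr) came without SAM 3. Over all genes the count called moved from 0 to 1 in liver with RLE or with no filter, 2 with DESeq2 and 3 in the joint fit (0 to 1 with single libraries left out); in brain to 513 with DESeq2, 579 in the joint fit, 1 without SAM 1 and 2 together, and 0 to 5896 with single libraries left out; in thymus to 3 with no filter, 102 with DESeq2 and 3 in the joint fit; in spleen to 7 with DESeq2 and 0 to 1 with single libraries left out. The interaction called 15 genes with no filter against 2, and 1 without brain SAM 1 and 2.

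Some differences turned sign. Without brain SAM 1 and 2, Gclc was at 0.04 and Txnrd1 at -0.03. With single libraries left out, log2 fold changes of SAM against Sham ran from -0.44 to 0.03 for Gclm and -0.60 to 0.11 for Srxn1 in liver; -0.06 to 0.03 for Gclc, -0.08 to 0.01 for Keap1 and -0.03 to 0.10 for Txnrd1 in brain; -0.07 to 0.03 for Gclc, -0.05 to 0.09 for Gsr, -0.06 to 0.04 for Keap1 and -0.05 to 0.08 for Txnrd1 in thymus; and -0.06 to 0.03 for Nfe2l2, -0.24 to 0.72 for Srxn1 and -0.15 to 0.10 for Txnrd1 in spleen. Between Sham tissues they ran from -0.06 to 0.55 for Srxn1 (liver against brain), -0.01 to 0.13 for Txnrd1 (brain against thymus) and -0.25 to 1.75 for Gpx2 (brain against spleen). With library totals alone, Keap1 was at -0.45 (liver against brain), -0.48 (liver against spleen) and -0.03 (brain against spleen), Srxn1 at -1.07 (liver against brain) and -0.45 (liver against thymus), Gpx2 at -0.72 (liver against thymus), Gclm at -0.17 and Txnrd1 at -0.24 (brain against thymus) and Gclc at 0.03 (thymus against spleen); the scaling itself sets these. Of them, Keap1 against brain and spleen was past the threshold in both directions (0.99 and 1.09 with TMM).

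The labels do not tie animal numbers across tissues, and the libraries were not treated as paired, since not every same-number correlation was over 0.1. The deviations of same-numbered libraries from the group means correlated at -0.012 to 0.181 in 25 pairs, 3 of them over 0.1. A library correlated best with its own number in 38 of 50 comparisons, a hint from the data that the numbers mark shared animals. With the replicate block the interaction still called 0 members and 3 genes, in thymus and spleen alone 0 of both. Between Sham tissues the block turned Gpx2 to -0.10 (liver against thymus) and -0.65 (brain against spleen) and Txnrd1 to -0.14 (brain against thymus), and the calls of Srxn1 for brain against thymus (0.59, adjusted p = 0.147), Gclc for brain against spleen (0.28, 0.0717) and Gclm for thymus against spleen (-0.37, 0.0680) were lost. The cause was not tested. Genes under 1 CPM (Srxn1 in spleen, Gpx2 and Slc7a11 where near 0) rest on few counts.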
